A study of Mus musculus with 16 samples.

Results

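The growth hormone patterned liver genes described here are 32 mouse genes chosen by symbol from a list of genes known to differ between the sexes in mouse liver, outside the Cyp2, Cyp3a, Ugt, Sult and Mup families. All 32 were in the deposited table of 24062 genes. From general knowledge of mouse liver, 16 were taken as male-predominant and 16 as female-predominant. After the filter on low counts 30 could be tested among 13482 genes in all, 14 male-predominant and 16 female-predominant. The 2 not tested were Moxd1 and Obp2a.

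In adult mouse liver the pituitary sets much of the sex difference in gene expression. Males release growth hormone in pulses and females release it almost continuously, and the transcription factor STAT5B, activated through the growth hormone receptor and the kinase JAK2, carries the difference to the genes. Mutual repression sharpens it in textbook accounts: BCL6 represses mainly female-biased genes in male liver and CUX2 represses male-biased genes in female liver. The genes under this control include steroid and fatty acid enzymes, uptake transporters and receptors.

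RNA was from livers of C57BL/6J mice taken at 24 weeks of age, with no transgene or other allele given. There were 4 groups of 4 libraries, control and BPA offspring of either sex, and a library is named by its group and sample number. Controls were offspring exposed in utero to corn oil, and BPA offspring were exposed in utero only to bisphenol A, a monomer of polycarbonate plastic that binds estrogen receptors. Dose, dams and litters are not given in the sources used, so p-values measure the spread between these samples, and littermates within a group cannot be told apart from unrelated animals. In whole liver, fewer cells of a type and less RNA per cell cannot be told apart.

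Library totals, in M (1000000 estimated counts), ran from 19.4 to 26.8 M in female control, from 28.6 to 32.2 M in female BPA, from 21.1 to 23.6 M in male control and from 25.3 to 28.9 M in male BPA libraries, so exposed libraries were deeper in both sexes. Levels are CPM, counts per 1000000 of effective library size, and changes are log2 fold changes with their standard error (SE) from edgeR's quasi-likelihood model. The threshold was an adjusted p of 0.05, by Benjamini-Hochberg over the whole tested set. Male control 7, male BPA 12 and female control 17 were the highest of their groups for 12, 13 and 12 of 30 tested members. They were not alone in this, since female BPA 14 was highest for 12 as well. Male BPA 12 did stand apart on the third principal component, an axis of variation over all tested genes. It was at -50.3 there, and the other libraries were at -18.2 to 23. Male control 7, male BPA 12 and female control 17 were picked after the data were seen, and results that rest on them are given without them.

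In controls the labelled sexes carried the known pattern in nearly every tested member. Of 14 tested male-predominant genes 12 were higher in males and none was higher in females, where 10.5% of all tested genes were called higher in males. Of 16 female-predominant genes 14 were higher in females, where 7.24% of all genes were. The male minus female change had a median of 3.27 over the male-predominant genes and -1.60 over the female-predominant genes, against 0.009 over all genes. The members were chosen for this sex difference in mouse liver generally, so these counts describe how the libraries sit on a known pattern. The exceptions were Bcl6 and Cspg5 among male-predominant and Slc16a5 and Cd36 among female-predominant genes. Libraries of the sexes did not overlap for 12 male-predominant genes (13.1% of all genes were higher in males without overlap) and for 13 female-predominant genes (9.19% of all genes), since Ntrk2 passed with overlap.

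The widest male excess in controls was in a pair of cytochrome P450 genes, a steroid enzyme and a fatty acid elongase. Cyp4a12a, a fatty acid omega-hydroxylase, had 203, 316, 343 and 273 CPM in male control 2, 3, 7 and 10, and 0.14, 0.968, 3.77 and 0.181 CPM in female control 1, 4, 17 and 18. In male BPA 3, 4, 12 and 15 it had 246, 250, 263 and 166 CPM, and in female BPA 1, 8, 9 and 14 it had 0.215, 0.237, 0.178 and 0.163 CPM. Males stood far above females with no overlap, and female control 17 was the highest female. The male minus female change in controls was 7.87 ± 0.65 (SE, edgeR adjusted p = 5.53e-06), and it was 9.32 without female control 17.

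Its neighbour Cyp4a12b had 113, 138, 173 and 104 CPM in male control 2, 3, 7 and 10 and 0.14, 0.387, 1.69 and 0.145 CPM in female control 1, 4, 17 and 18. Male BPA 3, 4, 12 and 15 had 127, 123, 144 and 90.2 CPM, and female BPA 1, 8, 9 and 14 had 0.123, 0.119, 0.0593 and 0.13 CPM. The sexes were again apart by 7.88 ± 0.48 in controls (edgeR adjusted p = 1.71e-07), or 9.15 without female control 17. Of the 31-base words in the exons of Cyp4a12b 62.9% also occur in other genes, chiefly Cyp4a12a, and 62.2% of those of Cyp4a12a, so how reads were split between the pair is uncertain.

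Hsd3b5, a steroid dehydrogenase family enzyme of male liver, was at or near 0 in females. It had 5.94, 6.75, 4.82 and 6.62 CPM in male control 2, 3, 7 and 10, and 0, 0, 0.193 and 0.0725 CPM in female control 1, 4, 17 and 18. Male BPA 3, 4, 12 and 15 spread from high to low with 12.1, 5.15, 1.65 and 24.5 CPM, and female BPA 1, 8, 9 and 14 had 0.0614, 0, 0 and 0 CPM. The exposed males lay on both sides of the narrow male control range, and no male overlapped any female. The change in controls was 6.47 ± 0.96 (edgeR adjusted p = 0.000598), and 34.1% of its 31-base words are shared with related genes.

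Elovl3, which elongates very long chain fatty acids, had 291, 240, 236 and 158 CPM in male control 2, 3, 7 and 10 and 5.41, 2.59, 10.3 and 11.1 CPM in female control 1, 4, 17 and 18. Male BPA 3, 4, 12 and 15 had 519, 309, 487 and 243 CPM, and female BPA 1, 8, 9 and 14 had 0.614, 10.3, 9.84 and 8.57 CPM. Female BPA 1 was the lowest of all libraries, and the exposed males overlapped the upper male controls. The male excess in controls was 4.98 ± 0.68 (edgeR adjusted p = 0.00043).

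**Figure D1:**
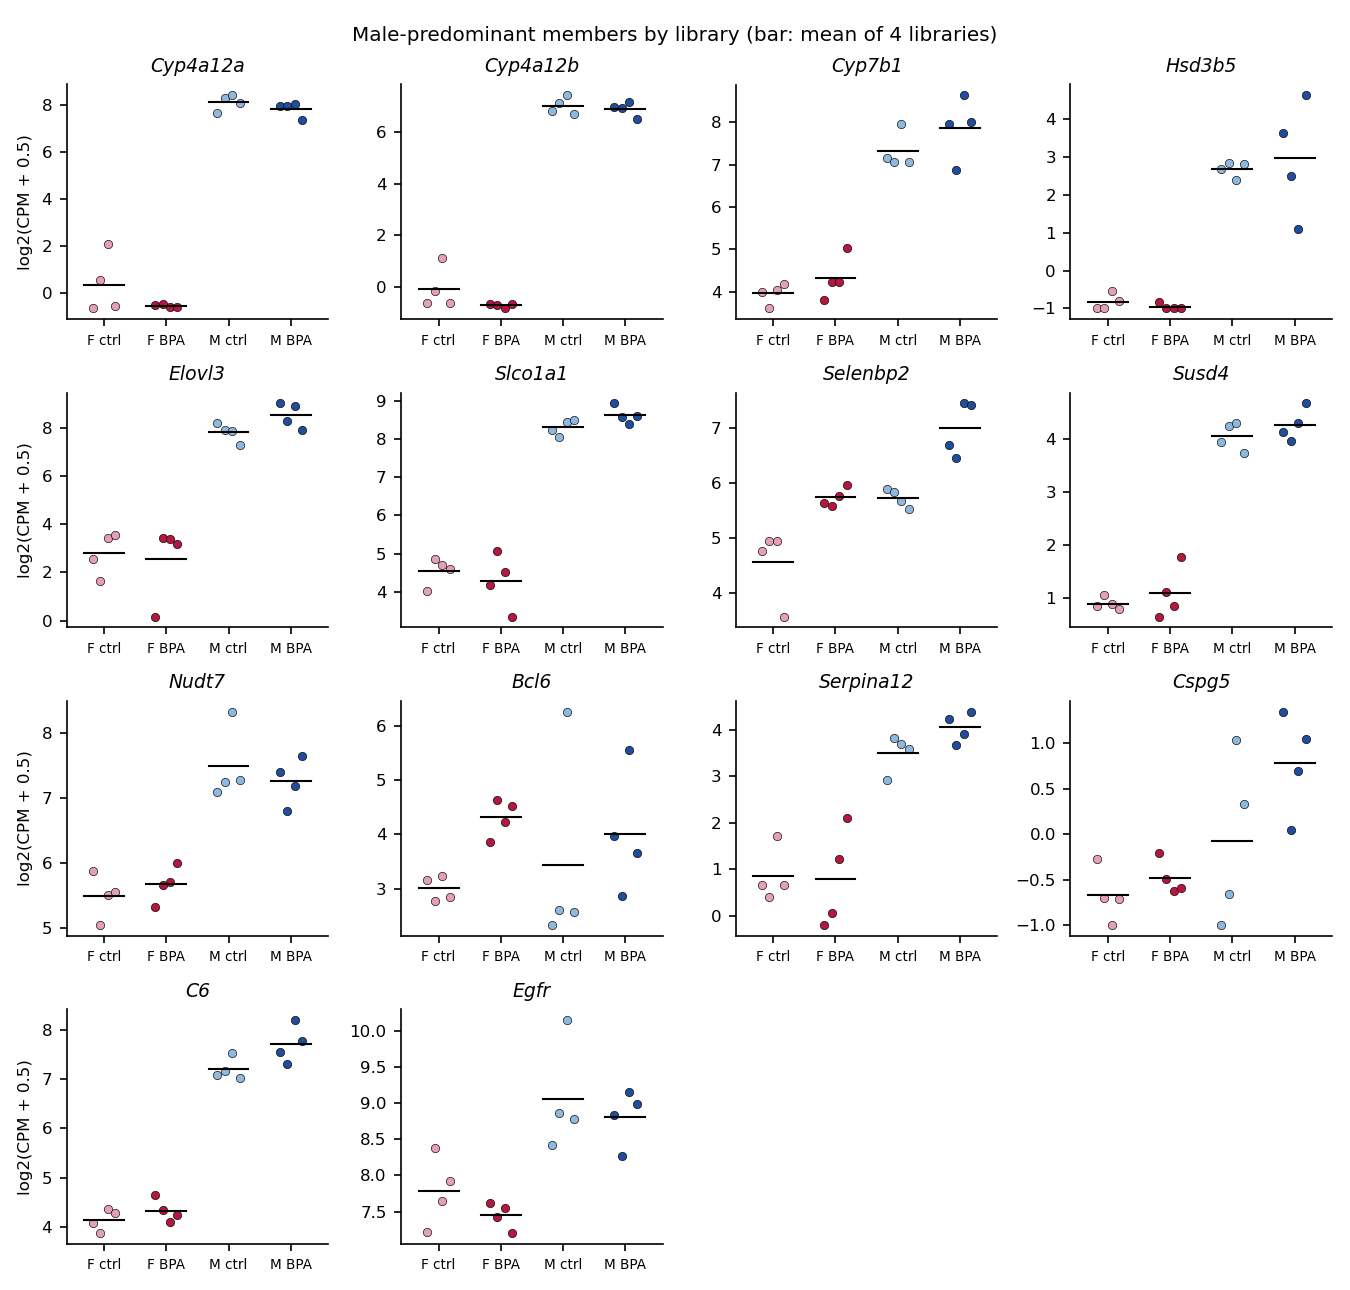
Levels of the 14 tested male-predominant genes in each library, as log2(CPM + 0.5), with the mean of 4 libraries as a bar; F and M are female and male, ctrl is corn oil. Males sat above females in both treatments for 12 genes, while Bcl6 rested on male control 7 and Cspg5 overlapped in controls.

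The other male-predominant enzymes and transporters kept the same order. Cyp7b1, which hydroxylates oxysterols, averaged 165 ± 56.8 CPM in control males and 15.2 ± 2.54 in control females (SD, n = 4), with 250 CPM in male control 7 and 132 to 143 in the other control males. Slco1a1, an organic anion uptake carrier, averaged 321 ± 44.8 and 23.4 ± 5.53 CPM. Nudt7, a peroxisomal hydrolase of coenzyme A, averaged 191 ± 87.1 and 45.6 ± 10.6 CPM. Susd4, a complement regulator, averaged 16.4 ± 3.05 and 1.37 ± 0.15 CPM, and C6, a terminal complement protein, 148 ± 25.4 and 17.3 ± 2.61 CPM. Serpina12, the adipokine vaspin, averaged 11.1 ± 2.87 CPM in control males and 1.43 ± 0.89 in control females. These 6 genes passed in both sex comparisons and in every alternative run.

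Receptors and regulators were less uniform. Egfr, the epidermal growth factor receptor, averaged 597 ± 367 CPM in control males and 231 ± 77.9 in control females; its male excess of 1.37 ± 0.34 (edgeR adjusted p = 0.015) was 0.83 without male control 7, which had 1140 CPM. With male control 7, male BPA 12 and female control 17 all left out it was 0.76 with an edgeR adjusted p of 0.0906. Bcl6 had 4.53, 5.58, 76.0 and 5.41 CPM in male control 2, 3, 7 and 10 and 6.35 to 8.89 CPM in control females. Apart from male control 7, every control male was therefore below every control female, which goes against the male-predominant label given to Bcl6. Its change in controls was 1.59 ± 0.88 (edgeR adjusted p = 0.232). Male control 7 was the highest control male for 12 of 30 tested members, 9 of them male-predominant. It also had 55.6 CPM of Socs2, a STAT5 target that damps growth hormone signalling, against 5.89 to 16.0 in the other control males. Igf1 was at 703 CPM against 476 to 568. Female control 4 had a similar 52.5 CPM of Socs2. Other growth hormone pathway genes were lowest of the control males in male control 7. Among them were Cish (1.92 against 3.58 to 5.23 CPM), Stat5b (31.6 against 36.5 to 47.5) and Igfals (61.0 against 62.8 to 74.8). The part of this library's state in the member levels was not tested.

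Of the other male-predominant genes, Selenbp2 is described with exposure, and Cspg5, Obp2a and Moxd1 were near the detection limit in most libraries. Cspg5, a neural proteoglycan, had 0 to 1.54 CPM in control males and 0 to 0.326 in control females. Obp2a, a lipocalin, was at 0 in all 8 female libraries and between 0 and 0.759 CPM in males. Moxd1, a relative of dopamine beta-hydroxylase, was at 0 in 14 libraries, with 775 counts (34.6 CPM) in male BPA 12 and 12 counts (0.447 CPM) in male BPA 15. No test was made on Obp2a and Moxd1.

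Among female-predominant genes the widest gaps in controls were in a plasma glycoprotein, an oxidase, an anion transporter and the repressor CUX2. A1bg, a secreted immunoglobulin-like glycoprotein, was at 0 in all 4 control males and at 17.6, 21.3, 25.7 and 23.0 CPM in female control 1, 4, 17 and 18. Female BPA 1, 8, 9 and 14 had 92.3, 11.6, 28.4 and 90.3 CPM, and male BPA 3, 4, 12 and 15 had 0.108, 0.152, 0.313 and 0.112 CPM. Exposed females spread below and above the control females, and all females stood above all males. Against 3 counts over the control males, the level in control females was at least 627-fold higher; this bound covers counting error only and is nominal, because low estimated counts piled up at 7, above it. Of its exon length 16.5% overlaps exons of another gene.

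Hao2, a peroxisomal hydroxyacid oxidase, had 24.7, 4.92, 4.74 and 14.9 CPM in female control 1, 4, 17 and 18 and 11.9, 6.08, 9.72 and 29.8 CPM in female BPA 1, 8, 9 and 14. It was at 0 in every male except male control 2, at 0.151 CPM. Females of both treatments overlapped each other widely and stayed above the males. Slc22a26, an organic anion transporter family member, had 139, 107, 133 and 144 CPM in female control 1, 4, 17 and 18 and 1.46, 2.50, 2.11 and 1.92 CPM in male control 2, 3, 7 and 10. Female BPA 1, 8, 9 and 14 had 148, 152, 185 and 139 CPM, and male BPA 3, 4, 12 and 15 had 1.54, 1.70, 0 and 1.34 CPM. The sexes stood far apart in both treatments, and the male minus female change in controls was -6.02 ± 0.42 (edgeR adjusted p = 7.31e-07).

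Cux2 had 5.87, 3.6, 8.99 and 8.01 CPM in female control 1, 4, 17 and 18 and 0.101, 0, 0.0936 and 0.224 CPM in male control 2, 3, 7 and 10. Female BPA 1, 8, 9 and 14 had 12.1, 5.31, 8.80 and 1.53 CPM, and male BPA 3, 4, 12 and 15 had 0.179, 0.265, 0.134 and 0 CPM. Exposed females spread beyond the control females on both sides without reaching the males. The change in controls was -5.92 ± 0.79 (edgeR adjusted p = 0.000202).

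**Figure D2:**
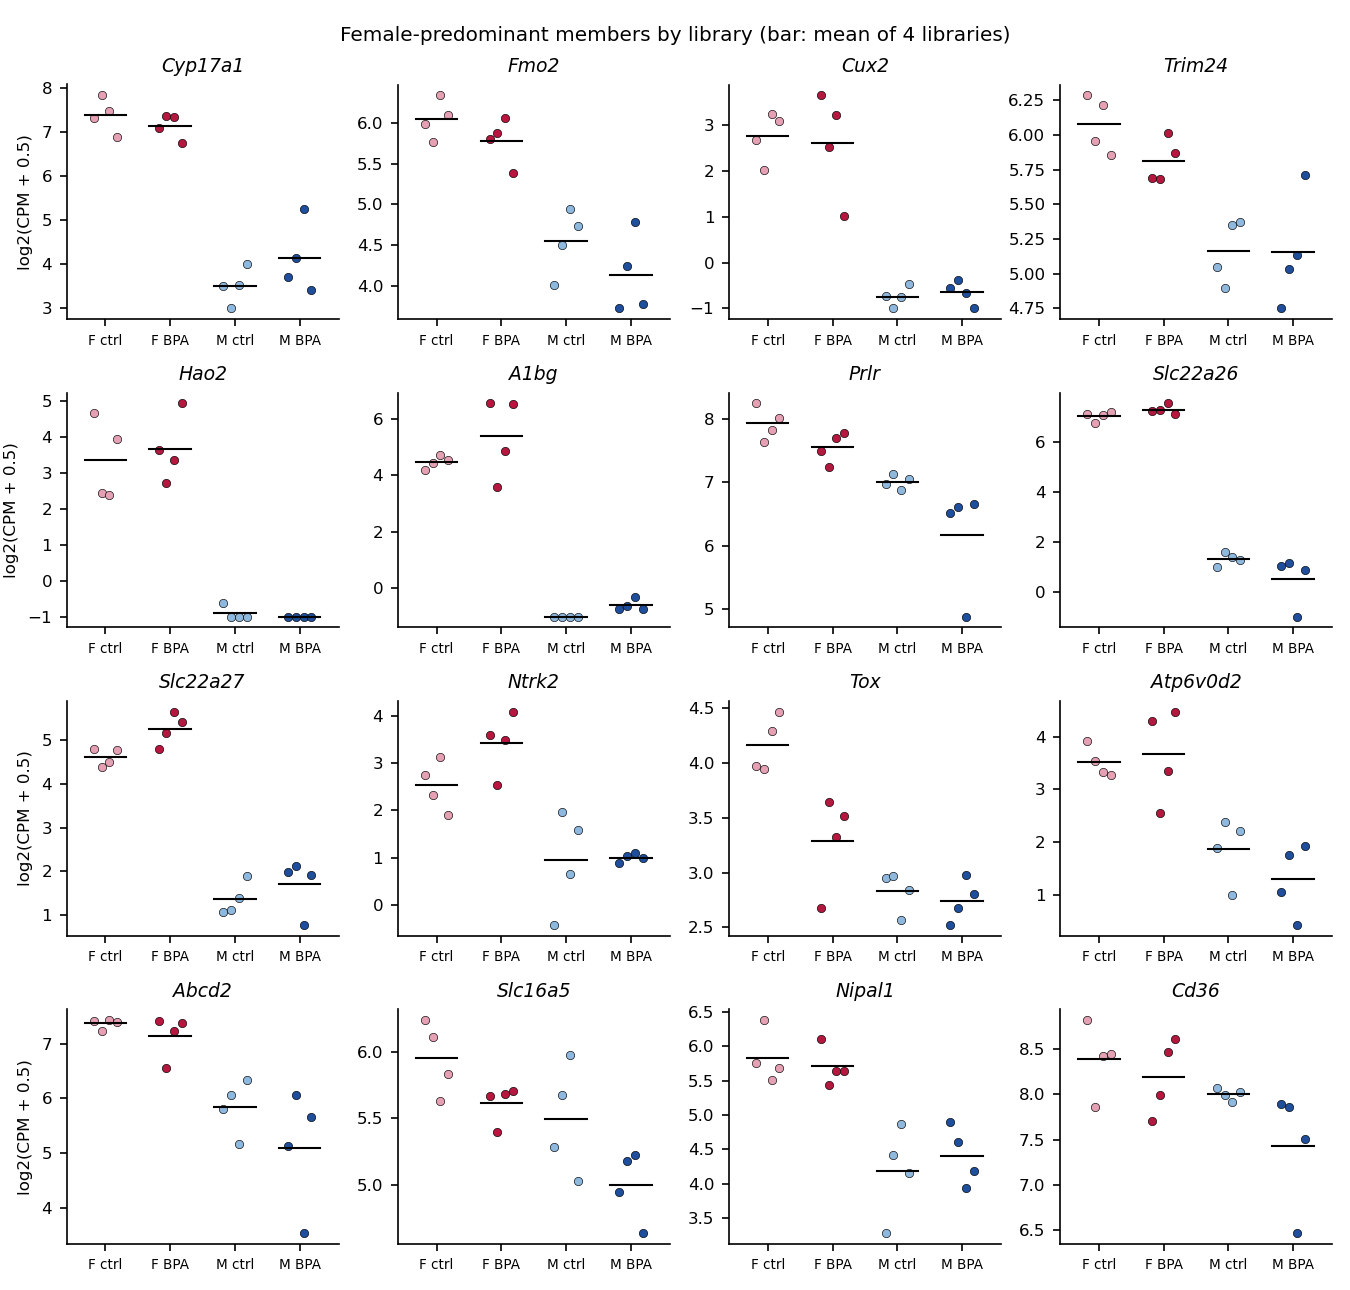
Levels of the 16 tested female-predominant genes in each library, as log2(CPM + 0.5), with the mean of 4 libraries as a bar; group names as for the male-predominant genes. Cux2, Hao2, A1bg and the Slc22a transporters separated the sexes completely, Tox was lower in all 4 exposed than in all 4 control females, and male BPA 12 was lowest for Prlr, Abcd2 and Cd36.

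The other female-predominant enzymes and carriers followed. Cyp17a1, which makes androgen precursors, averaged 171 ± 45.3 CPM in control females and 11.2 ± 3.31 in control males. Slc22a27, also an organic anion transporter family member, averaged 24.2 ± 3.41 and 2.15 ± 0.75 CPM, with 46.9% of its 31-base words shared with relatives. Fmo2, a flavin monooxygenase, averaged 66.3 ± 11.2 and 23.5 ± 6.20 CPM. Abcd2, a peroxisomal carrier of very long chain fatty acyl-CoA, averaged 165 ± 10.2 and 59.3 ± 18.7 CPM, and lost its call without male control 2 or male control 7 (edgeR adjusted p = 0.0528 and 0.0666). Nipal1, a magnesium transporter, averaged 58.2 ± 16.9 and 19 ± 8.15 CPM. Slc16a5, of the monocarboxylate transporter family, averaged 62.2 ± 11.7 and 46.0 ± 13.4 CPM with overlap and did not pass. Cd36, the fatty acid translocase, also overlapped at 344 ± 90.2 and 256 ± 11.6 CPM.

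Among the regulators and receptors Trim24, a transcriptional corepressor, averaged 67.6 ± 9.64 CPM in control females and 35.8 ± 5.73 in control males. Prlr, the prolactin receptor, averaged 247 ± 44.9 and 129 ± 9.88 CPM without overlap, but its change of -0.94 ± 0.28 (edgeR adjusted p = 0.0344) lost the call when any control library except female control 4 was left out (adjusted p 0.0518 to 0.0894). Ntrk2, a neurotrophin receptor, averaged 5.56 ± 2.17 and 1.82 ± 1.43 CPM and lost its call of -1.59 ± 0.51 (edgeR adjusted p = 0.044) when female control 1, 4 or 17 or male control 2, 7 or 10 was left out, with adjusted p from 0.0571 to 0.117. Atp6v0d2, a proton pump subunit, averaged 11.2 ± 2.48 and 3.38 ± 1.39 CPM, and its call was lost without female control 1 (adjusted p = 0.0547) or male control 7 (0.0598).

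Per kilobase of exon, a scale on which levels of different genes can be compared, the members' levels were led by different genes in each sex. Elovl3 and Cyp4a12a led in control males at 117 ± 27.8 and 117 ± 25.2 CPM per kb, levels that did not differ beyond their spread. In control females Cd36 led at 95.7 ± 25.1, before Cyp17a1 at 61.6 ± 16.3 and Slc22a26 at 44.3 ± 5.59 CPM per kb.

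Because STAT5 and BCL6 bind the same palindrome, TTCNNNGAA, the stretch upstream of the RefSeq start was read for the 22 of 32 members with an entry in RefSeq's GRCm38.p6 promoters. The motif is its own reverse complement, so one strand covers both, and the window was the 250 bases before the start. It occurred in 5 of 22 members (22.7%), Bcl6, Moxd1, A1bg, Prlr and Slc22a26, and in 8.13% of all 27025 genes with a window. ATCGAT, the core bound by CUX and HNF6 proteins, occurred in Moxd1 and Cux2 (0.836% of genes), and CAAAGTCCA on either strand in none (0.451% of genes). A match is a run of letters, and binding there was not measured. The stretches below are shown for the 4 members that carry TTCNNNGAA in a window with no annotated exon of the gene, written 5′ to 3′ on the gene's strand with TTCNNNGAA in capitals. Slc22a26 is at chr19:7802668-7802917 on the minus strand, the first Bcl6 start at chr16:23988853-23989102 (minus), the second Bcl6 start at chr16:23981284-23981533 (minus), Prlr (second start) at chr15:10223656-10223905 (plus) and Moxd1 at chr10:24223267-24223516 (plus).
Slc22a26: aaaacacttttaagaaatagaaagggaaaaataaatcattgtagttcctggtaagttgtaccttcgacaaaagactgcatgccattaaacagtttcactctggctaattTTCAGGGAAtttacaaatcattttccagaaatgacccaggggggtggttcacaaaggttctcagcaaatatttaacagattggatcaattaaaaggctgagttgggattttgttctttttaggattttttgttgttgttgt
Bcl6, first start: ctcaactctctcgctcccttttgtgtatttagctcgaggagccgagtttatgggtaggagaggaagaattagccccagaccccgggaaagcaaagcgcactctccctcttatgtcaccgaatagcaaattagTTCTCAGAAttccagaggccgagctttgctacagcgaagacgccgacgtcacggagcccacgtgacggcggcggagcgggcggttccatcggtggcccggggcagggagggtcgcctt
Bcl6, second start: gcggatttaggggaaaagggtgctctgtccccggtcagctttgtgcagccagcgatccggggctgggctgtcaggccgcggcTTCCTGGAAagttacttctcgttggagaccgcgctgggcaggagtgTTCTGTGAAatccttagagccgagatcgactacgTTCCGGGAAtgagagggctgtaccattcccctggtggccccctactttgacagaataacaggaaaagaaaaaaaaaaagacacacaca
Prlr, second start: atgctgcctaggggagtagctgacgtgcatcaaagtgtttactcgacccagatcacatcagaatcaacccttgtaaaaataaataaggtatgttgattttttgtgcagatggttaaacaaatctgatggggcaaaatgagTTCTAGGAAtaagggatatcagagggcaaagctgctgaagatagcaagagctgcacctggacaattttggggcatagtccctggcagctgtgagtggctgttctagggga
Moxd1: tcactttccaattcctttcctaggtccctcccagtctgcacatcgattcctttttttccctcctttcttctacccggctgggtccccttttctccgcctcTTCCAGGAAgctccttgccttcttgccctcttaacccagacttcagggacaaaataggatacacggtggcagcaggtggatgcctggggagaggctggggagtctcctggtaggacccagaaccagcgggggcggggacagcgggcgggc
The second Bcl6 start held 3 matches, the first of them at position -168 from that start, and the other stretches held 1 each. In level these genes have little in common: Slc22a26 was strongly female-biased, Prlr moderately female-biased, Bcl6 low in 3 of 4 control males, and Moxd1 present in 2 exposed males.

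Exposed animals kept the sex pattern. Of 14 tested male-predominant genes 12 were higher in exposed males (5.54% of all genes), the same 12 as in controls, and 13 of 16 female-predominant genes were higher in exposed females (3.74% of all genes). The female-predominant gene that dropped out was Tox, with a change of -0.62 ± 0.19 (edgeR adjusted p = 0.0537) against -1.41 ± 0.20 in controls; it passed without female BPA 1 (adjusted p = 0.00635). Libraries did not overlap for 13 male-predominant genes, with Cspg5 added (9.47% of all genes), and for 13 female-predominant genes (8.3% of all genes). The median change was 3.45 over the male-predominant genes (3.88 without female BPA 14) and -2.25 over the female-predominant genes, against -0.008 over all genes. The sex difference was wider in exposed than in control libraries for 11 of 14 male-predominant and 10 of 16 female-predominant genes. For these genes wider means a positive or a negative male minus female BPA effect (BPA effect in males less that in females). Over all 13482 tested genes this effect was positive in 48.1% and negative in 6996. The counts describe fitted values from the same libraries, not independent genes, and no member's difference passed. Calls in exposed libraries that 1 library decided were Trim24 (adjusted p 0.0551 to 0.0999 when female BPA 1, 9 or 14 or male BPA 3, 4 or 12 was left out), Nipal1 (0.0535 without female BPA 1) and Egfr (0.05 to 0.0502 without female BPA 8, 9 or 14).

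**Figure D3:**
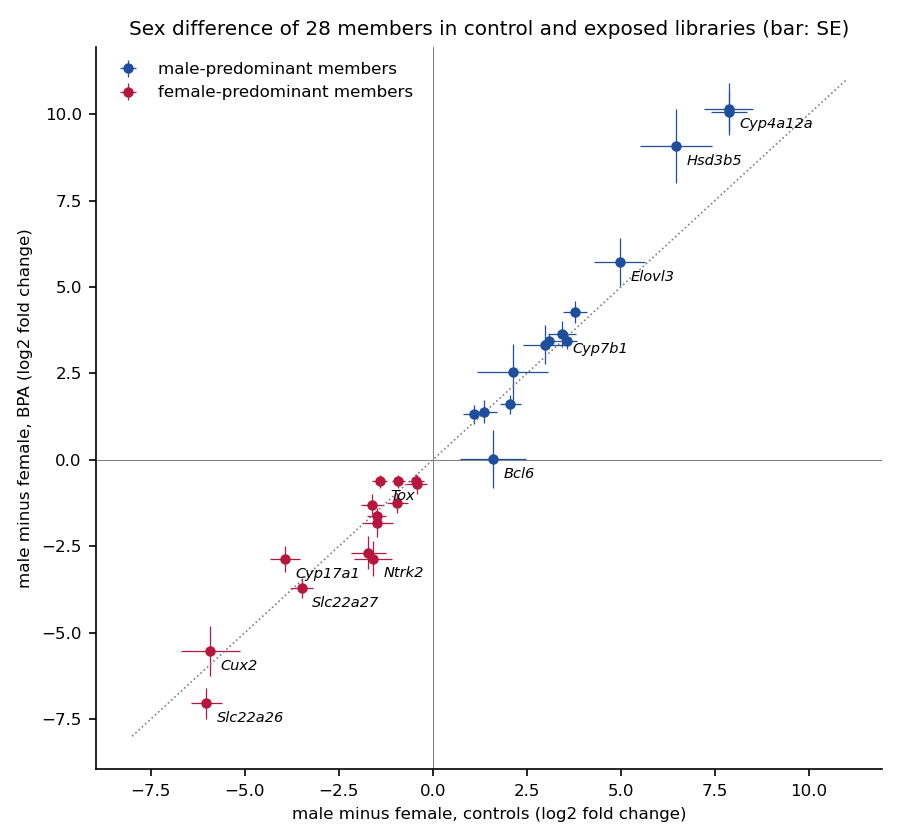
Male minus female log2 fold change of 28 members in control libraries (x) and in exposed libraries (y), with SE bars and a dotted line of equal values; A1bg and Hao2, at 0 in a whole group, are left out. Male-predominant genes lie above 0 and female-predominant genes below 0 on both axes, with Bcl6 at 0.02 in exposed libraries; Tox is at -1.41 in control and -0.62 in exposed libraries.

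The question the design asks of these genes is whether exposure in utero shifted the pattern in daughters or sons, and few members moved. In females 1 of 30 tested members rose (Selenbp2) and 1 fell (Tox), where 10.1% of all tested genes rose and 10.4% fell. In males 1 rose (Selenbp2) and 0 fell, where 6.38% of all genes rose and 8.76% fell. At an unadjusted edgeR p under 0.05, 3 members were higher and 3 lower in exposed females. In exposed males 2 were higher and 2 lower, the latter being Prlr and Slc16a5. DESeq2 called Selenbp2, C6 and A1bg higher and Slc16a5 lower in exposed males. Shares over all genes were not counted for these rules, so no excess is read from them.

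Selenbp2, a selenium-binding protein of liver cytosol known to bind acetaminophen, was higher after exposure in both sexes. It had 26.8, 30.4, 30.5 and 11.5 CPM in female control 1, 4, 17 and 18 and 49.3, 47.4, 53.8 and 62.1 CPM in female BPA 1, 8, 9 and 14. Male control 2, 3, 7 and 10 had 58.8, 56.3, 50.7 and 45.5 CPM, and male BPA 3, 4, 12 and 15 had 103, 86.7, 173 and 170 CPM. Every exposed library was above every control of its sex, and exposed females overlapped control males. The change was 1.10 ± 0.28 in females (edgeR adjusted p = 0.0122, higher in 4 of 4 libraries). In males it was 1.33 ± 0.28 (edgeR adjusted p = 0.00534, higher in 4 of 4 libraries). Both calls held in all 16 alternatives, with libraries thinned to equal totals among them, at adjusted p of at most 0.0356 in females and 0.04 in males. The male excess of Selenbp2 was 1.09 ± 0.28 in controls and 1.32 ± 0.28 in exposed libraries, and the male minus female BPA effect of 0.23 ± 0.39 did not pass (edgeR adjusted p = 0.941).

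Selenbp2 shares 59.3% of its 31-base words with its neighbour Selenbp1, the major family member, which is not on the list. Selenbp1 had 106 to 126 CPM in control females and 165 to 223 in exposed females, and 128 to 137 CPM in control and 172 to 194 in exposed males. It rose by 0.73 ± 0.09 in females (edgeR adjusted p = 4.21e-05) and 0.45 ± 0.09 in males (adjusted p = 0.00303). Summed over the pair, which does not depend on how shared reads were divided between them, exposed libraries also lay above controls in each sex, at 214 to 286 against 118 to 153 CPM in females and 261 to 367 against 179 to 189 CPM in males. The share of Selenbp2 in the pair was 9.67 to 22.3% in control and 20.5 to 23.6% in exposed females, with overlap, and 24.9 to 31.4% in control and 33.2 to 49.0% in exposed males, without. Selenbp2 is at chr3:94693556-94704413 on the plus strand, and the 233 bases of its promoter window before the annotated exon, chr3:94693323-94693555, held no TTCNNNGAA; they are shown as the upstream sequence of the member that moved in both sexes.
Selenbp2: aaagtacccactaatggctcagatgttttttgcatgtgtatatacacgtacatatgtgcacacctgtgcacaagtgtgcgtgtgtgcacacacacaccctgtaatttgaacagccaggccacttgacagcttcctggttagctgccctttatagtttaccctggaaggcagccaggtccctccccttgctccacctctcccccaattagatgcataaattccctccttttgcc

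Tox, a nuclear protein with an HMG box best known from T cells, fell in exposed females. It had 15.2, 14.9, 19.1 and 21.7 CPM in female control 1, 4, 17 and 18 and 5.90, 12.0, 9.54 and 11 CPM in female BPA 1, 8, 9 and 14. Male control 2, 3, 7 and 10 had 7.25, 7.33, 5.43 and 6.66 CPM, and male BPA 3, 4, 12 and 15 had 5.24, 5.87, 7.37 and 6.48 CPM. All exposed females were below all control females, and female BPA 1 lay within the male range. The change was -0.88 ± 0.19 in females (edgeR adjusted p = 0.00387, lower in 4 of 4 libraries) and held in all 16 alternatives, at adjusted p of at most 0.0236. In males the exposed libraries overlapped the controls. The difference between the sexes in this effect was 0.79 ± 0.27 and did not pass (unadjusted p = 0.011, edgeR adjusted p = 0.545). The T cell markers Cd3e and Cd3d had too few reads to be tested, with at most 0.483 and 0.338 CPM of Cd3e in control and exposed females, so the part of T cells in the Tox change was not tested.

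Several members lay just short of the threshold. Cyp4a12a was lower in exposed females by -2.57 ± 0.87 on the log2 scale (edgeR adjusted p = 0.0515) and Cyp4a12b by -2.33 ± 0.80 (adjusted p = 0.0538). Both rest on control females at a few counts: without female control 17 the values were -1.12 (adjusted p = 0.236) and -1.05, while both passed without female control 1 (adjusted p = 0.0208 and 0.0311) or female control 18 (0.0198 and 0.0269). For Cyp4a12a, exposed and control females overlapped; for Cyp4a12b they did not. Slc22a27 in females was 0.68 ± 0.26 (edgeR adjusted p = 0.0779), with all exposed above all control females, and passed without female BPA 1 (0.0474). A1bg in females was 1.35 ± 0.53 (edgeR adjusted p = 0.103) and passed without female BPA 8 (0.00873).

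Bcl6 showed the opposite case, exposed and control females apart but no call. It had 6.35 to 8.89 CPM in control and 14.0, 24.3, 18.3 and 22.6 CPM in female BPA 1, 8, 9 and 14, with a change of 1.39 ± 0.87 (edgeR adjusted p = 0.293). The model's spread for Bcl6 covers all 16 libraries, with male control 7 and male BPA 12 at 76.0 and 46.4 CPM. Fitted on the 8 female libraries alone, the change was 1.40 and passed (edgeR adjusted p = 0.00181), and it was 1.47 (0.00222) without male control 7, male BPA 12 and female control 17. In males the change was -0.19 ± 0.84 (edgeR adjusted p = 0.914) and its direction rested on male control 7: without that library it was 1.98 and passed (0.0275), and without the 3 libraries it was 1.17 (0.0196). In all, exposed females lay wholly above controls for Bcl6, Selenbp2 and Slc22a27 (12% of all genes) and wholly below for Cyp4a12b and Tox (12.7% of all genes).

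In males C6 was higher by 0.54 ± 0.18 (edgeR adjusted p = 0.0559) and passed without male control 7 (0.0256), male BPA 3 (0.0481) or male BPA 4 (0.0257). Slc16a5 was -0.53 ± 0.19 (edgeR adjusted p = 0.0746) and passed without male control 10 (0.0255). Prlr was -0.69 ± 0.28 (edgeR adjusted p = 0.119): all 4 exposed males, at 91.1, 97.3, 28.9 and 101 CPM in male BPA 3, 4, 12 and 15, were below the control males at 117 to 140 CPM, and the value without male BPA 12 was -0.38. Exposed males lay wholly above controls for Selenbp2 and for A1bg, where controls were at 0 and DESeq2 alone made a call with an adjusted p of 0.00501 (8.56% of all genes), and wholly below for Cd36 and Prlr (11.3% of all genes). Male BPA 12 was the highest exposed male for 13 and the lowest for 9 of 30 members.

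**Figure D4:**
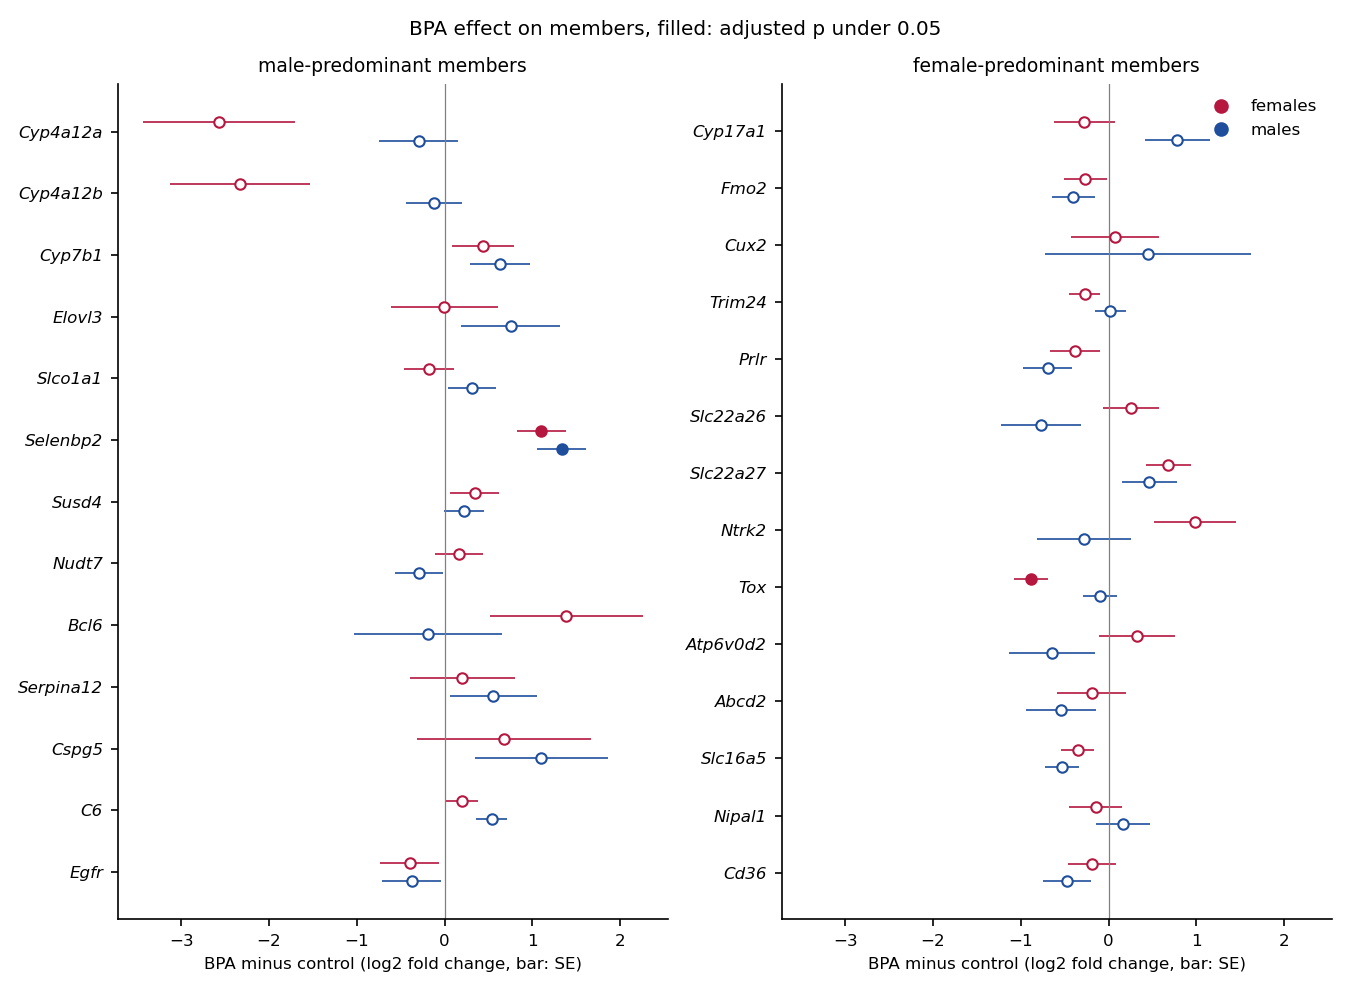
BPA minus control log2 fold change with SE for the tested members in females (red) and males (blue); filled points passed at an adjusted p under 0.05, and Hsd3b5, Hao2 and A1bg, at or near 0 in a group, are left out. Only Selenbp2 in both sexes and Tox in females are filled, and Cyp4a12a and Cyp4a12b in females lie lowest with wide bars.

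Over the lists, the median BPA effect in females was 0.18 for male-predominant and -0.17 for female-predominant genes, and in males 0.42 and -0.34, against 0.006 and -0.001 over all genes. With 1 library left out at a time the 4 medians ranged from 0.02 to 0.30, from -0.24 to -0.05, from 0.24 (without male BPA 15) to 0.67 (without male control 7) and from -0.36 to -0.20 (without male BPA 12). In males, then, the listed medians lay on the side of a wider sex difference. There 9 of 14 male-predominant genes were above 0 and 10 of 16 female-predominant genes below 0, with 49.8% of all genes above 0. In females 8 of 14 were above and 9 of 16 below 0, with 50.8% of all genes above 0. The list median of 1 library varied within groups with an SD of 0.295 (male-predominant) and 0.34 (female-predominant) in log2 units. The medians were not tested against this spread.

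The male minus female BPA effect asks directly whether sons and daughters differed. No member passed in either direction, as no gene did in edgeR: 0% of all genes were positive and 0% negative calls, with a lowest adjusted p of 0.253. At an unadjusted p under 0.05 edgeR gave 1019 genes (7.56%), among them 3 members, Cyp4a12a, Cyp4a12b and Tox, all positive, with adjusted p of 0.629, 0.602 and 0.545. DESeq2 called 38 genes and limma-voom 1, with 0 members in either. The Cyp4a12a difference was 2.28 ± 0.99 and fell to 0.83 without female control 17. The medians were 0.35 over male-predominant and -0.20 over female-predominant genes; the latter was -0.001 without male BPA 12, and 0.03 without male control 7, male BPA 12 and female control 17. Missing the threshold does not show that the sexes responded alike.

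The signalling genes around growth hormone were read from a list of 21, all tested. In controls 1 was higher in males (10.5% of all genes were), Igf1, the secreted mediator of growth hormone action, and 4 were higher in females (7.24% of all genes), Igf1r, Irs2, Igfbp1 and Igfbp3, which form the receptor, adaptor and binding proteins of the insulin-like growth factor system. Their changes were -0.64, -0.97, -1.97 and -0.87, and each was lost in some setting with 1 library left out. In exposed libraries Igf1 was higher in males by 0.77 (edgeR adjusted p = 0.00388) and none of the list was higher in females, where 5.54% of all genes were higher in males and 3.74% in females.

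With exposure, Stat5b, the transcription factor at the centre of this pathway, rose in both sexes. It had 56.3, 40.2, 45.1 and 36.2 CPM in female control 1, 4, 17 and 18 and 55.5, 72.8, 67.9 and 81.6 CPM in female BPA 1, 8, 9 and 14. Male control 2, 3, 7 and 10 had 46.5, 47.5, 31.6 and 36.5 CPM, and male BPA 3, 4, 12 and 15 had 60.7, 60.4, 51.3 and 59.0 CPM. Males did not overlap, and in females only female BPA 1 was below a control, female control 1. The rise was 0.65 ± 0.15 in females (edgeR adjusted p = 0.0073), held in all 16 alternatives, and 0.51 ± 0.15 in males (adjusted p = 0.0327), lost when male control 7 or 10 or male BPA 3, 4 or 15 was left out (0.0557 to 0.0824). These values are of messenger RNA; the protein and its activation were not measured. Of the rest, Ptpn6, a phosphatase, fell by 0.27 on the log2 scale in females (edgeR adjusted p = 0.039, lost in 7 of 8 fits with 1 library left out). In males Igfbp1 rose by 2.07 (edgeR adjusted p = 0.0283), with 204, 204, 414 and 31.4 CPM in male BPA 3, 4, 12 and 15 against 39.3 to 66.7 in controls, so male BPA 15 was below every control. Stat3 rose by 0.59 in males (edgeR adjusted p = 0.0372). Both male calls were lost in fits with 1 library left out, for Igfbp1 without male control 2, 3 or 7 or male BPA 4 or 12 (0.0524 to 0.0759) and for Stat3 without male control 2 or 10 or male BPA 12 or 15 (0.0704 to 0.0852). In all, 1 of the 21 rose and 1 fell in females, where 10.1% of all genes rose and 10.4% fell, and 3 rose and 0 fell in males, where 6.38% rose and 8.76% fell. Ghr, Jak2 and Stat5a, the receptor, its kinase and the sister factor, did not pass in either sex.

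**Figure D5:**
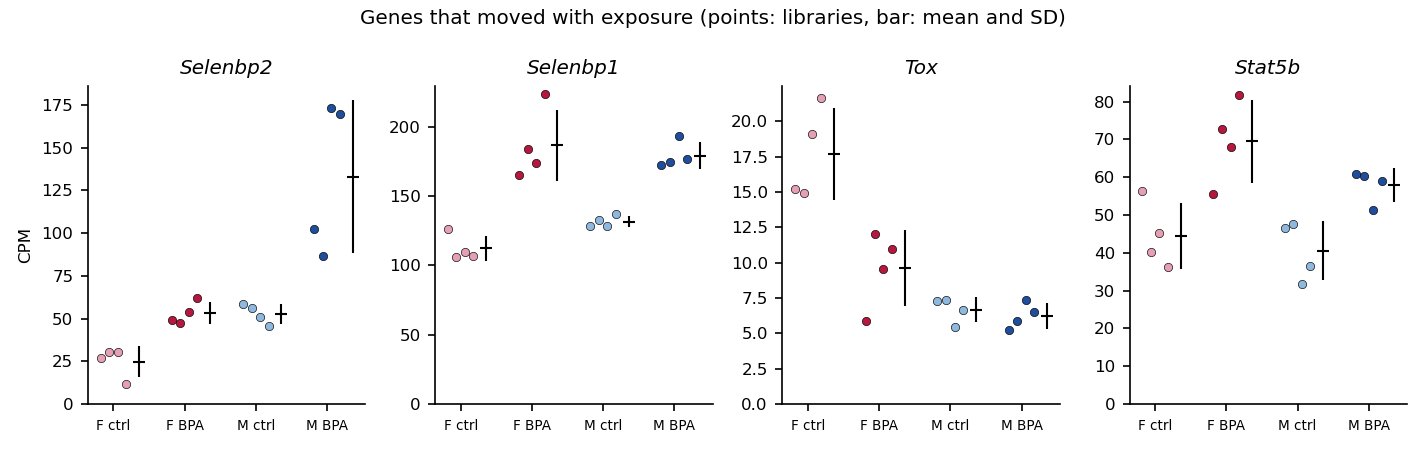
CPM of Selenbp2, Selenbp1, Tox and Stat5b in each library (points), with the mean and SD of 4 libraries beside them, on axes that start at 0. Selenbp2 and Selenbp1 were higher in all exposed than in all control libraries of each sex, Tox was lower in exposed than in control females, and Stat5b overlapped in females through 1 library of each treatment.

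Among 17 liver transcription factors and sex steroid receptors, Foxa1 was higher in males and Esr1, the estrogen receptor alpha, higher in females, in controls (0.67 and -0.60) and in exposed libraries (0.51 and -0.66). The Foxa1 call in exposed libraries (edgeR adjusted p = 0.0286) was lost in 4 of 8 fits with 1 library left out. With exposure Nr0b2, a bile acid induced corepressor, rose in females by 1.16 (edgeR adjusted p = 0.00684), from 7.24 to 16.9 CPM in controls to 22.5 to 38.0 CPM. In males Foxa1 fell by 0.50 on the log2 scale (edgeR adjusted p = 0.0231), lost in 5 of 8 fits with 1 library left out. Of 14 clock genes, which would shift with the hour of sampling, Cry1 rose in females (0.97, edgeR adjusted p = 0.0195, lost in 3 of 8 fits) and Clock in males (0.47, adjusted p = 0.0288, lost in 3 of 8 fits). Over all tested genes, 10.1% rose and 10.4% fell in females with exposure, and 6.38% rose and 8.76% fell in males. In controls 10.5% were higher in males and 7.24% in females, and in exposed libraries 5.54% and 3.74%. The hour of dissection is not given in the sources used, and its part in the member levels was not tested.

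Cell type markers were summed per library. Hepatocyte markers, 7 of 8 in the table, gave 103400 to 141900 CPM across the 16 libraries, so the samples were liver as labelled. The 9 pericentral hepatocyte markers gave 10550 to 13460 CPM in control and 5434 to 12140 in exposed females, and 16000 to 17230 in control and 11460 to 12810 in exposed males, lower without overlap in males. Most of this sum is Cyp2e1, a cytochrome P450 that oxidises ethanol and other small molecules, with 11060 to 12410 CPM in control and 7639 to 8620 in exposed males and 7620 to 9241 in control and 3457 to 7597 in exposed females. In males 1 of the 9 fell, Cyp2e1, a count near the share of all genes that fell (8.76%). In females 3 fell, Cyp2e1, Glul and Axin2, where 10.4% of all genes fell. The other pericentral markers did not pass. Summed, the 9 periportal markers overlapped between treatments in both sexes, with Ass1 alone running from 4.24 to 2759 CPM across libraries. Singly, Gls2 rose in females, to 276 to 402 CPM in exposed against 101.5 to 171.4 in control libraries. There 10.1% of all genes rose. Hsd17b13 fell in both sexes, where 10.4% of all genes fell in females and 8.76% in males. Exposed females had 451 to 665 against 739 to 1016 CPM in controls, and exposed males 436 to 606 against 752 to 909. The other periportal markers did not pass. Stellate markers (7 of 7) gave 526 to 645 CPM in control females and 341 to 434 in control males, and endothelial markers (7 of 7) 426 to 522 and 356 to 411 CPM. Of 4 adipocyte markers Plin1 and Lep were at 0 in every library. Adipoq had reads only in female control 1 and female BPA 14, at 0.280 and 0.0978 CPM. Cfd, the only 1 tested, was called higher in males in controls and in exposed libraries. It had 1.21 to 9.38 CPM in control males and 0.0362 to 0.0483 in control females. The 5 erythroid markers gave 287 to 412 CPM in exposed males against 168 to 301 in control males, with overlap. Singly, Hbb-bt fell in both sexes and no other erythroid marker passed with exposure. Hbb-bt had 8.75 to 33.5 CPM in control and 0 to 0.492 in exposed females, and 2.73 to 27.7 in control and 0 to 0.179 in exposed males. Hba-a1 and Hba-a2 were uneven between libraries, with 0 and 104 CPM in male control 10 but 188 and 0.374 in male control 7. The part of pericentral hepatocytes and of other cell types in the member changes was not tested.

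Spread between libraries differed among members and bounded what could be seen. Among members that averaged 1 CPM or more, the coefficient of variation had a median of 23.7% in control and 31.6% in exposed females for male-predominant genes, and 23.4% and 25.6% in males. For female-predominant genes it was 18.6% and 24.4% in females and 29.2% and 37.6% in males. Abcd2 was steadiest in control females at 6.16% and Cd36 in control males at 4.52%, and Bcl6 was most variable in control males at 155%.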

How the data were processed

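The members, the lists and the tests were chosen with earlier results of these data known. The deposited table held whole-number estimated counts per gene symbol and sample, not scaled to library size. The tools named per the submitters' processing notes are HISAT, StringTie, FastQC and DESeq2, on GRCm38 (mm10). Their versions, the annotation and the strand setting are not given in the sources used.

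The tests were run with edgeR 4.0.16 in R 4.3.3. The expression filter with 4 groups left 13482 of 24062 genes. Scaling was by trimmed means of M values (TMM), and 1 robust quasi-likelihood model with a mean per group was fitted to all 16 libraries. Tests were two-sided, with Benjamini-Hochberg adjustment over all tested genes and a threshold of 0.05. The script was tested on simulated data.

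Values in every library were given for members that passed a BPA contrast and for the 4 members with the largest sex difference in each direction in controls. From each pathway list up to 4 genes of lowest p per contrast are named. Ghr, Jak2, Stat5a, Socs2, Cish, Igfals and Selenbp1 were added after their values were seen. A gene selected by this rule is not reported here. Alternatives were other size factors, no filter, DESeq2 1.42.0, limma-voom (limma 3.58.1) with sample quality weights, only the compared groups, libraries thinned to the smallest total, each library left out, and, chosen after the data were seen, 3 libraries left out together. For a group at 0, folds are lower bounds against 3 counts in the whole group. Positions, exon lengths and shared 31-base words are from GENCODE M21 on GRCm38, and promoter sequence is from RefSeq GRCm38.p6. These bounds for groups at 0 cover counting error only, while each SE or SD includes the spread between libraries.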

Additional observations from a re-analysis of the deposited data

Results flagged for a closer look

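In groups of 4, 1 library lay far from the other 3 (by Dixon's ratio at the 95% level) in 11 of 120 groups examined. The groups share the same libraries and their CPM were not transformed, so the nominal rate of 1 in 20 is no reference for this count. Male control 7 was high for 4 members: Cyp7b1 had 250 CPM there against 132 to 143 in the other control males, Nudt7 had 321 against 135 to 155, Bcl6 had 76.0 against 4.53 to 5.58 and Egfr had 1140 against 341 to 464. Female control 17 was high for Cyp4a12b, at 1.69 CPM against 0.14 to 0.387, and for Serpina12, at 2.76 against 0.813 to 1.09. Prlr was low in male BPA 12, at 28.9 CPM against 91.1 to 101, and Slc16a5 in female BPA 8, at 41.6 against 50.5 to 51.8. The other 3 were at very low levels: Cyp4a12b at 0.0593 CPM in female BPA 9, Hsd3b5 at 0.0614 in female BPA 1 and Hao2 at 0.151 in male control 2. The latter pair had the other 3 libraries of the group at 0, where the ratio is 1 for any count.

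For Slc22a26, exposed females were all above the control female mean and exposed males all below the control male mean, with overlap between treatments in both sexes and no call in either. The difference between the sexes' BPA effects was -1.02 ± 0.56 and did not pass (edgeR adjusted p = 0.736). Male BPA 12 was at 0, and the other exposed males had 1.34 to 1.70 CPM against 1.46 to 2.50 in control males. Without male BPA 12 the male minus female change in exposed libraries went from -7.05 to -6.66.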

How the results depend on the processing

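No called result changed direction. The direction of Bcl6 was not stable. Its BPA effect in males, -0.19, was 0.56 in limma-voom and 1.17 without male control 7, male BPA 12 and female control 17, a setting chosen after the data were seen, and ranged from -0.95 to 1.98 with 1 library left out. Its sex difference in controls was -0.49 without those 3 and -0.57 to 1.92 with 1 left out. In exposed libraries it was -0.05 with upper quartile scaling, 0.00 with thinned libraries, -0.75 in limma-voom, -0.80 without those 3 and -0.79 to 0.31 with 1 left out, and its male minus female BPA effect was -2.34 to 0.60 with 1 left out. The Selenbp2 difference between sexes was -0.23 in limma-voom and -0.025 without those 3. The median male minus female BPA effect over female-predominant genes, never a call, went from -0.20 to 0.03 without those 3. The counts of members called in both sex comparisons stayed within 1.5 times in all 16 alternatives, and 18 of 26 calls in controls and 19 of 25 in exposed libraries held in every one. In limma-voom Hao2, Hsd3b5 and A1bg lost their calls in controls and A1bg in exposed libraries. The calls of Selenbp2 and Tox with exposure held in every alternative; the counts changed through Bcl6, A1bg, C6, Slc16a5, Slc22a27 and the Cyp4a12 pair. In females, risen members numbered 2 with DESeq2, 3 with only the compared groups, 2 with limma-voom and 2 with those 3 libraries left out, and 1 to 2 with 1 library left out. Fallen members in females numbered 2 with upper quartile scaling, 3 with DESeq2, and 1 to 3 with 1 library left out. In males, risen members numbered 2 with DESeq2 size factors, 2 with upper quartile scaling, 3 with DESeq2, 3 with those 3 libraries left out, and 1 to 3 with 1 left out; fallen members numbered 1 with DESeq2 and 0 to 1 with 1 left out. The difference between the sexes called 0 members in all 23 alternatives. Upper quartile scaling moved the share of male-higher calls over all genes from 59.1% to 37.4% in controls and from 59.7% to 41.3% in exposed libraries, with the same 12 male-predominant and 14 female-predominant counts in controls. Members near 0 (Cspg5, Hsd3b5, Moxd1, Obp2a, and the Cyp4a12 pair in females) are limited by depth. No paired analysis was possible because the groups compared share fewer than 2 sample numbers.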
